A study of Mus musculus with 4 samples.

Results

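The genes described are the 281 protein-coding zinc finger genes named Zfp300 to Zfp999 on chromosomes 1 to 19 in GENCODE release vM21. They were picked out of 20807 protein-coding genes on the same chromosomes, and they are called the members. The rule uses names alone and no measured value, but it was chosen with earlier results of these data known. Chromatin accessibility (ATACseq, in which the Tn5 transposase cuts open DNA) and the histone variant H2A.Z (ChIPseq on chromatin digested with micrococcal nuclease) were profiled in 1 WT male liver (Uhrf1-fl/fl) and 1 Uhrf1hepKO male liver (Uhrf1-fl/fl;Alb:Cre). Both mice were C57Bl/6, between 8 and 12 weeks old and on a normal diet, and the livers were taken in the morning. In the Uhrf1hepKO, Cre is driven by the albumin promoter, which is active in hepatocytes, and both livers carry the floxed allele. Deletion in the other cell types of this liver was not tested. The data were 4 peak lists, with 1 library per genotype and assay and therefore no test of any difference. The 95% intervals given are Wilson intervals over genes, cover counting error only, and treat genes as independent, which neighbours in a cluster are not. A whole liver is a mixture of cells, so fewer cells with a peak and a weaker peak in every cell cannot be told apart.

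On chromosomes 1 to 19 the lists held 10439 (WT) and 10636 (Uhrf1hepKO) ATACseq peaks and 50665 (WT) and 46400 (Uhrf1hepKO) H2A.Z peaks. Read totals are not in the lists, but the background coverage that the fold and p-value of the most frequent peak height imply, taken over the shortest peak, placed the Uhrf1hepKO library at about 1.42 times the depth of WT for ATACseq and at the depth of WT for H2A.Z. The lists did not allow the tissue to be checked by its markers. Of 10 hepatocyte genes, Alb had an ATACseq peak within 5 kb of its transcription start site (TSS) in Uhrf1hepKO only, Ttr had an H2A.Z peak in WT only, and the remaining 8 had no peak. None of 6 Kupffer and other immune markers, 4 endothelial markers or 3 stellate markers had a peak. Of 4 cholangiocyte markers, Sox9 had H2A.Z in both genotypes and ATACseq in WT only, and Krt19, Krt7 and Epcam had no peak. Of 4 genes that are not liver genes, Neurod1 and Sftpc had H2A.Z in both genotypes, and Myod1 and Ins2 had no peak. Uhrf1 itself had a peak in all 4 lists near its TSS, which says nothing of the deletion, since peaks at the TSS do not report on the floxed exons.

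C2H2 zinc finger proteins bind DNA through tandem fingers, each holding a zinc ion between a pair of cysteines and a pair of histidines. Many of those encoded in the large mouse clusters carry a KRAB domain, which recruits TRIM28 and the methyltransferase SETDB1 to silence transposable elements and imprinted regions, and such genes lie in tandem arrays that grew by duplication. H2A.Z is a variant of H2A placed in the nucleosomes beside active and poised promoters, on either side of the nucleosome-depleted start. UHRF1 recruits DNMT1 to copy DNA methylation after replication, so its loss in hepatocytes lowers DNA methylation.

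Of the 281 members, 262 encoded at least 1 match to the finger pattern in the representative transcript and 240 encoded at least 3, with a median of 10 fingers in 562 residues. The signature searched for as the KRAB A box was present in 75 members (26.7%); other KRAB sequences would not match it. The median member had 4 exons, a last exon of 2519 bp against 1180 bp for all coding genes, and 85.8% of its coding bases in that last exon. In all, 166 members lay in 25 clusters, defined as at least 3 members with no more than 500 kb between neighbours, and 115 lay outside them. Chromosome 7 alone held 64 members, followed by chromosome 17 with 30, chromosome 13 with 27, chromosome 4 with 25 and chromosome 2 with 24. A cluster is named by its chromosome and a letter in the order along it.

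The promoters that the comparison turns on are shown first, as the 250 bases before the RefSeq start (GRCm38.p6, 5′ to 3′ on the gene's strand), with each CpG in capitals. Zfp874b (chr13:67484254-67484503, minus strand) and Zfp719 (chr7:43579336-43579585, plus strand) had the members' highest H2A.Z folds in WT and Uhrf1hepKO, and Zfp961 (chr8:71950816-71951065, plus strand) was among the 3 highest ATACseq folds in both genotypes. Zfp968 (chr2:175372186-175372435, plus strand) lay in a cluster of copies that all had H2A.Z, and Zfp933 (chr4:147848419-147848668, minus strand) had the highest H2A.Z fold of cluster 4a. Zfp600 (chr4:146156577-146156826, plus strand) and Zfp980 (chr4:145670447-145670696, plus strand) belong to cluster 4a as well and had no peak in any list. The sequences hold 8, 9, 15, 3, 8, 2 and 1 CpGs in the order printed, and the last pair share a run of 65 identical bases.
Zfp874b: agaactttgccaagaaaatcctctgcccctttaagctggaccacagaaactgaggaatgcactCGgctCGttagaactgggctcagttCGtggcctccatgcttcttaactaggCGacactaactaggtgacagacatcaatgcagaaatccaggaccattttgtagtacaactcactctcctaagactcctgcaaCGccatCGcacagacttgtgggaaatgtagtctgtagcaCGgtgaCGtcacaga
Zfp719: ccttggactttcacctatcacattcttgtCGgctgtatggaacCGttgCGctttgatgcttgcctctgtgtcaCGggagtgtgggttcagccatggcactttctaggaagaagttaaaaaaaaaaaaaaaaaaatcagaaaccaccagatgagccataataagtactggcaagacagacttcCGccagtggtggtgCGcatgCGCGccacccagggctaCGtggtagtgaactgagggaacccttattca
Zfp961: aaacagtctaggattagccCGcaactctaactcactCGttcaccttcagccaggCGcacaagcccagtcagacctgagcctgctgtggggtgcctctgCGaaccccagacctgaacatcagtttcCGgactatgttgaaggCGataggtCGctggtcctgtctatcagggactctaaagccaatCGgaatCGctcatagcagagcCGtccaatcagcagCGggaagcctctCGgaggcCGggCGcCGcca
Zfp968: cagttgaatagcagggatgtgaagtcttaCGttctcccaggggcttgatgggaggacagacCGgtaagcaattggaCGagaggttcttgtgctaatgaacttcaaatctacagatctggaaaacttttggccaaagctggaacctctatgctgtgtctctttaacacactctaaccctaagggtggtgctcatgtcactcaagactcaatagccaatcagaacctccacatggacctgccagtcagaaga
Zfp933: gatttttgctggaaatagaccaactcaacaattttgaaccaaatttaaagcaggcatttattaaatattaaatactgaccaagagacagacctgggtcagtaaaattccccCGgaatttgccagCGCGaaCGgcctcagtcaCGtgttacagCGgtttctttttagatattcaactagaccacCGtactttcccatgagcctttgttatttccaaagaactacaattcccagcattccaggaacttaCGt
Zfp600: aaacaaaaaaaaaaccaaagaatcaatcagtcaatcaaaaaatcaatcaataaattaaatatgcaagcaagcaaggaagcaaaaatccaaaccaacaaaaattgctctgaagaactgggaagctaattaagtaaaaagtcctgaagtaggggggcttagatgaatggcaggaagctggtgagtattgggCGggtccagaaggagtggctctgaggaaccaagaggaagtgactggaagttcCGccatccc
Zfp980: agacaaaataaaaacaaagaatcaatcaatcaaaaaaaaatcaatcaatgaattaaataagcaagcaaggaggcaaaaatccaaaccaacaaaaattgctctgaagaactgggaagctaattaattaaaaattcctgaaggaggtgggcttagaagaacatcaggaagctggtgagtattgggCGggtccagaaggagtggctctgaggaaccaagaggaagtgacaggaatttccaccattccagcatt

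Peaks of H2A.Z were found near the start of most members. Within 5 kb of the TSS, 227 of 281 members (80.8%, 95% interval 75.8 to 85.0) had an H2A.Z peak in WT, beside 54.4% of all coding genes, and 221 (78.6%, 73.5 to 83.0) had one in Uhrf1hepKO, beside 52.6%. ATACseq peaks were fewer. They were found at 124 members in WT (44.1%, 38.4 to 50), beside 31.4% of all coding genes. In Uhrf1hepKO they were found at 112 (39.9%, 34.3 to 45.7), beside 29.0%. At 111 of the 124 and 101 of the 112, a peak had the member's own TSS as its nearest coding TSS. Within 1 kb the ATACseq shares were 40.2% and 36.3%, beside 27.4% and 25.1% of all coding genes. In all 4 lists the members' interval lay above the share of all coding genes. The 102 coding genes Zfp1 to Zfp299 stood higher still for H2A.Z, with 97 (95.1%, 89.0 to 97.9) in WT and 96 (94.1%, 87.8 to 97.3) in Uhrf1hepKO, and their ATACseq shares of 51.0% and 45.1% had intervals that overlapped those of the members. At a stricter q-value of at most 0.01, the members with an ATACseq peak fell to 105 in WT and 86 in Uhrf1hepKO, while the H2A.Z counts stayed at 227 and 221. The ATACseq lists ran to q-values of 0.0997 in WT and 0.0993 in Uhrf1hepKO, higher than those of either H2A.Z list. The assays therefore cannot be compared by this change. Shares of all coding genes at this q-value are not given here, so the members' excess over them was not tested there.

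**Figure D1:**
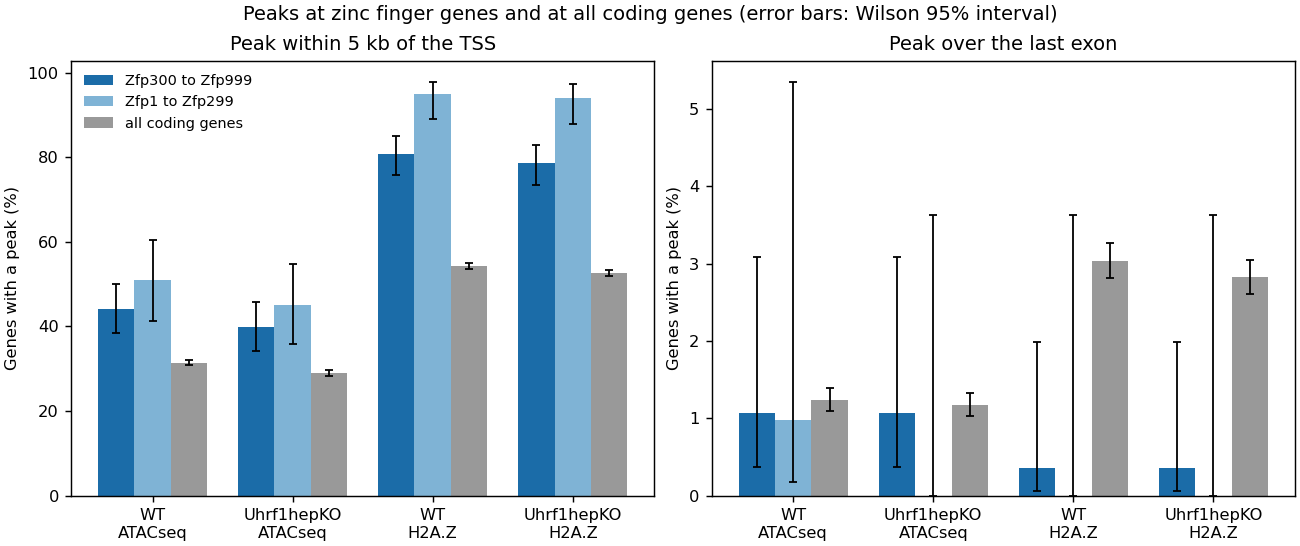
Percent of genes that have a peak at the TSS (5 kb on either side, left) and over the last exon (right) in each of the 4 lists, for the 281 members (dark blue), the 102 genes Zfp1 to Zfp299 (light blue) and all coding genes (grey); error bars are Wilson 95% intervals. Members stand above all coding genes at the TSS in every list and below them over the last exon for H2A.Z.

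The lists combined in few ways. All 4 had a peak at 90 members (32%, beside 21.9% of all coding genes), and 82 members (29.2%, beside 18.5%) had H2A.Z in both genotypes and no ATACseq peak. A further 29 (10.3%, beside 6.19%) added an ATACseq peak in WT only to H2A.Z in both genotypes, and 16 (5.69%, beside 3.82%) added one in Uhrf1hepKO only. No list had a peak at 48 members (17.1%, beside 40.6%), and ATACseq without H2A.Z in either genotype was found at 2 members. Zfp654 had it in both genotypes (5.97-fold in WT and 4.23-fold in Uhrf1hepKO), a pattern of 0.356% of members, beside 1.07% of all coding genes. Zfp987 of cluster 4a had it in Uhrf1hepKO only (0.356%, beside 0.841%). In WT only it was at 0 members, beside 0.899% of all coding genes.

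The 2 assays occupied different positions at the same starts. The middle of the ATACseq peak lay within 100 bp of the TSS for 67 of 127 peaks in WT (52.8%, beside 40.9% over all coding genes) and 65 of 115 in Uhrf1hepKO (56.5%, beside 40.7%). The peak covered the TSS itself at 91 of 124 members in WT (73.4%, beside 60.1% of all coding genes with a peak). In Uhrf1hepKO it did at 85 of 112 (75.9%, beside 58.1%). A far smaller part of the members' H2A.Z summits lay within 100 bp, 6.06% in WT (beside 4.31% over all coding genes) and 6.15% in Uhrf1hepKO (beside 4.19%). They flanked the start: 147 of the 227 members with H2A.Z in WT (64.8%) had summits within 1 kb on both sides of it, beside 43.6% of all coding genes with a peak, and 145 of 221 (65.6%, beside 41.3%) did in Uhrf1hepKO. Among members with an ATACseq peak, H2A.Z summits lay within 1 kb on both sides of it at 91 of 124 in WT (73.4%, beside 53.4%) and at 77 of 112 in Uhrf1hepKO (68.8%, beside 47.8%). The H2A.Z summits that enclosed it were a median of 471 bp apart in WT and 457 bp in Uhrf1hepKO, against 541 and 538 bp over all coding genes. The members' ATACseq peaks were centred more often downstream than upstream of the annotated TSS within 1 kb, at 74 against 39 members in WT and 60 against 40 in Uhrf1hepKO, whereas all coding genes had 2451 against 3175 and 2113 against 3001. Distances depend on the annotated start, taken here as the outermost base of the gene.

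**Figure D2:**
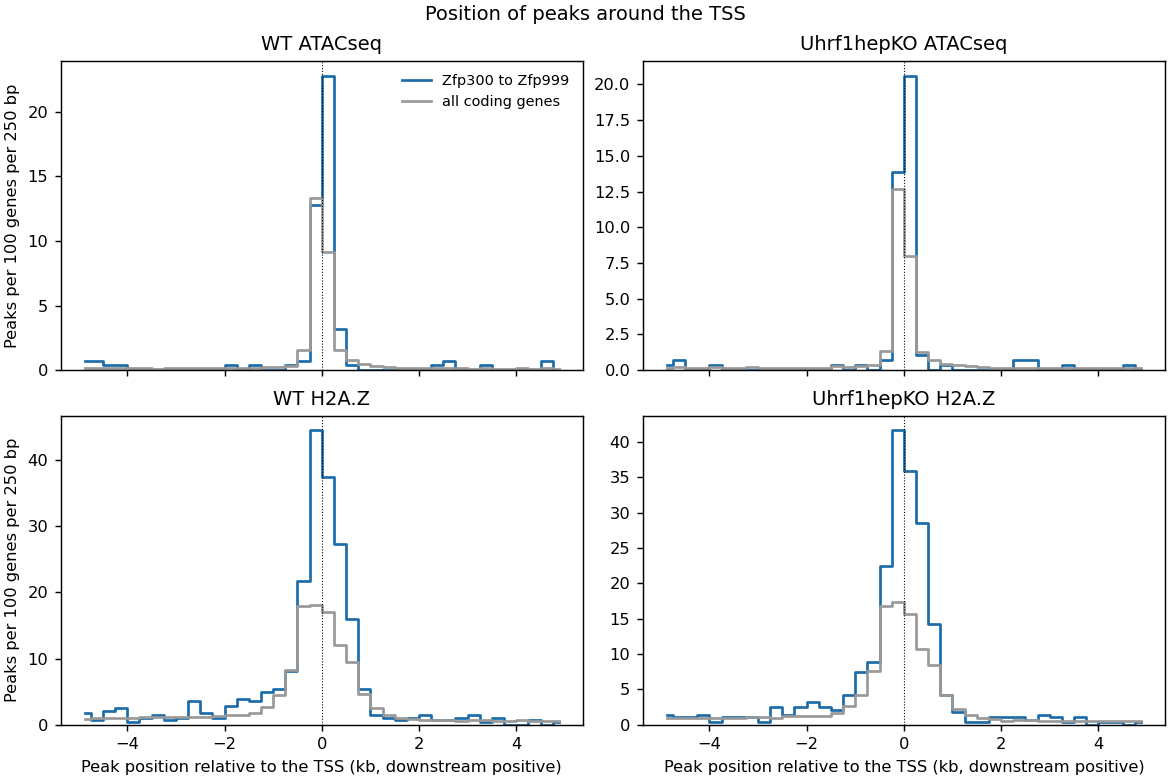
Peaks per 100 genes in bins of 250 bp from 5 kb upstream to 5 kb downstream of the TSS, for the members (blue) and all coding genes (grey) in each list; ATACseq peaks are placed by their middle and H2A.Z peaks by their summit. ATACseq forms 1 sharp maximum at the TSS, and H2A.Z a broader maximum that spans both sides.

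Zfp961, at the head of the ATACseq lists, shows this arrangement. Its ATACseq peak (WT chr8:71950821-71951110) had a fold enrichment over background of 9.03 in WT and 8.24 in Uhrf1hepKO and was centred at -73 bp and -100 bp from the TSS, where negative distances are upstream. H2A.Z summits lay at -197 bp and 329 bp in WT and at -210 bp and 330 bp in Uhrf1hepKO, one on either side. Its H2A.Z folds of 8.04 and 8.83 were ordinary for a member, since the best peak had a median fold of 8.77 in WT and 9.06 in Uhrf1hepKO over the 217 members with H2A.Z in both. The other members among the 3 highest ATACseq folds were Zfp317 (8.50 in WT, 5.75 in Uhrf1hepKO), Zfp386 (7.11 and 5.53), Zfp958 (6.56 and 8.30) and Zfp994 (4.03 and 7.89). The highest H2A.Z folds were those of Zfp874b (15.60 in WT, 13.94 in Uhrf1hepKO), Zfp719 (14.38 and 16.04), Zfp931 (14.38 and 13.25), Zfp949 (10.97 and 15.80) and Zfp346 (12.67 and 14.64). At all of these but Zfp346 the best peak lay within 250 bp upstream of the member's own TSS in both genotypes. The best peak of Zfp346 lay at -4845 bp in WT, 166 bp from the start of Uimc1, and the peak at its own start had a fold of 9.99.

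Members with and without peaks differed in the CpGs around the start. In the 500 bp on either side of the TSS the members had a median of 43.0 CpGs, as did all coding genes, but the 48 members with no peak had 14.5 and the others had 46.0. All coding genes were cut by this number into 4 bands of about equal size, and 31 members fell in the band of 0 to 12 CpGs, 111 in that of 13 to 43, 87 in that of 44 to 70 and 52 in that of 71 to 172. With 13 to 43 CpGs, 99 of 111 members had H2A.Z in each genotype (89.2%, 82.0 to 93.7), while 46.9% (WT) and 44.8% (Uhrf1hepKO) of other coding genes in the band did. ATACseq differed in the same way, with 46.8% (37.8 to 56.1) of members against 20.5% in WT and 45.9% (37.0 to 55.2) against 19.1% in Uhrf1hepKO. Among the 45 genes Zfp1 to Zfp299 in this band, 91.1% had H2A.Z in each genotype, so the high share was not limited to the members. It was 88.0% over the 83 members of the band whose window held at most 50% of 32-mers found more than once in the genome.

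With 0 to 12 CpGs, 7 of 31 members had H2A.Z in WT (22.6%, 11.4 to 39.8) and 6 in Uhrf1hepKO (19.4%, 9.19 to 36.3), near the 16.6% and 15.8% of other coding genes. With 44 to 70 CpGs the gap was smaller, with H2A.Z at 87.4% (78.8 to 92.8) of members against 76.8% of others in WT and ATACseq at 59.8% (49.3 to 69.4) against 48.7%. In Uhrf1hepKO H2A.Z was at 85.1% (76.1 to 91.1) against 74.8%, and the members' ATACseq interval took in the share of others, at 48.3% (38.1 to 58.6) against 45.0%. With 71 to 172 CpGs H2A.Z was at 45 of 52 members in WT (86.5%) against 77.0% of others, but ATACseq was at 18 (34.6%, 23.2 to 48.2) against 50.6%. There the members' ATACseq interval lay below the share of other genes in WT, and in Uhrf1hepKO it reached it, with 32.7% (21.5 to 46.2) against 45.8%. Members of this band with no ATACseq peak at the TSS included Zfp362, with 156 CpGs and an H2A.Z fold of 5.85 in WT and 6.97 in Uhrf1hepKO, and Zfp704, with 99 CpGs and folds of 5.12 and 5.58.

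**Figure D3:**
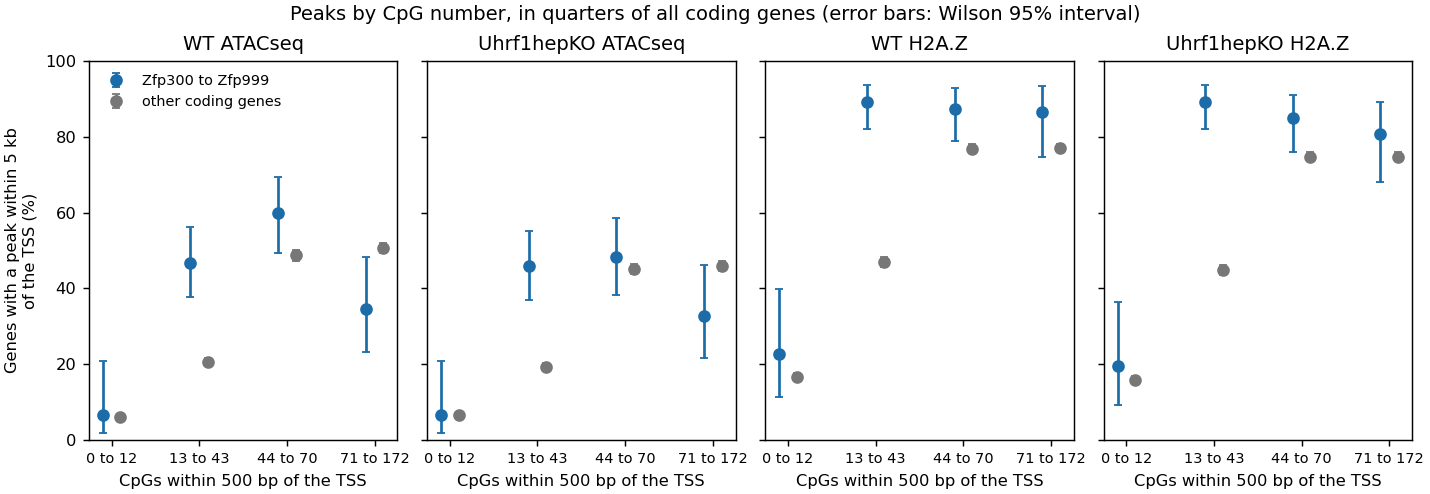
Percent of genes that have a peak at the TSS (5 kb on either side) in each list, by band of CpG number in the 500 bp to either side of it, for members (blue) and other coding genes (grey); error bars are Wilson 95% intervals. The gap is widest at 13 to 43 CpGs, and for ATACseq it turns round at 71 to 172.

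By cluster, H2A.Z was present at most starts. In 15 of the 25 clusters every member had an H2A.Z peak in WT, and in 12 of these every member had one in Uhrf1hepKO too. Clustered members had H2A.Z in 84.3% (78.0 to 89.1) of cases in WT and 82.5% (76.0 to 87.6) in Uhrf1hepKO, and members outside clusters in 75.7% (67.1 to 82.6) and 73.0% (64.3 to 80.3), so the intervals overlapped. The 196 other coding genes within the same intervals of the genome had H2A.Z in 60.2% (53.2 to 66.8) and 58.2% (51.2 to 64.8). These neighbours are mixed, and some are zinc finger genes named Zfp1 to Zfp299. In WT, H2A.Z was at 11 of 11 neighbours in 13b and 6 of 6 in 7g, where several bear such names. It was at 1 of 9 in 11a, where most are olfactory receptor genes (Olfr). The share therefore does not set the members against other zinc finger genes. The larger clusters with H2A.Z at every member in WT were 17a (14 of 14, in both genotypes) and 7i (10 of 10, and 9 of 10 in Uhrf1hepKO). Cluster 13b had H2A.Z at 16 of 18 members and 17b at 10 of 11, in both genotypes.

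ATACseq ranged widely between clusters. Cluster 9a had it at 3 of 3 members in both genotypes, with folds of 4.52 and 5.02 at Zfp560, 5.24 and 3.64 at Zfp426, and 4.83 and 4.24 at Zfp846 in WT and Uhrf1hepKO. Cluster 17a had it at 10 of 14 in WT and 9 of 14 in Uhrf1hepKO, whereas 7i had it at 2 of 10 and 7f at 1 of 6 in each. The members of 7i had a median of 63.0 CpGs and those of 17a 30.0, so of this pair the cluster with more CpGs had fewer ATACseq peaks. In 8b all 4 members had ATACseq in WT and 1 did in Uhrf1hepKO. In 17b there were 5 in WT and 8 in Uhrf1hepKO. In 8b the WT fold was 3.81 at Zfp709 and 4.56 at Zfp882 and Zfp617, which share 1 peak, and H2A.Z was listed at all of them in both genotypes. The members of 17b with ATACseq in Uhrf1hepKO only were Zfp871 (fold 3.52), Zfp952 (4.17) and Zfp955b (4.60).

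**Figure D4:**
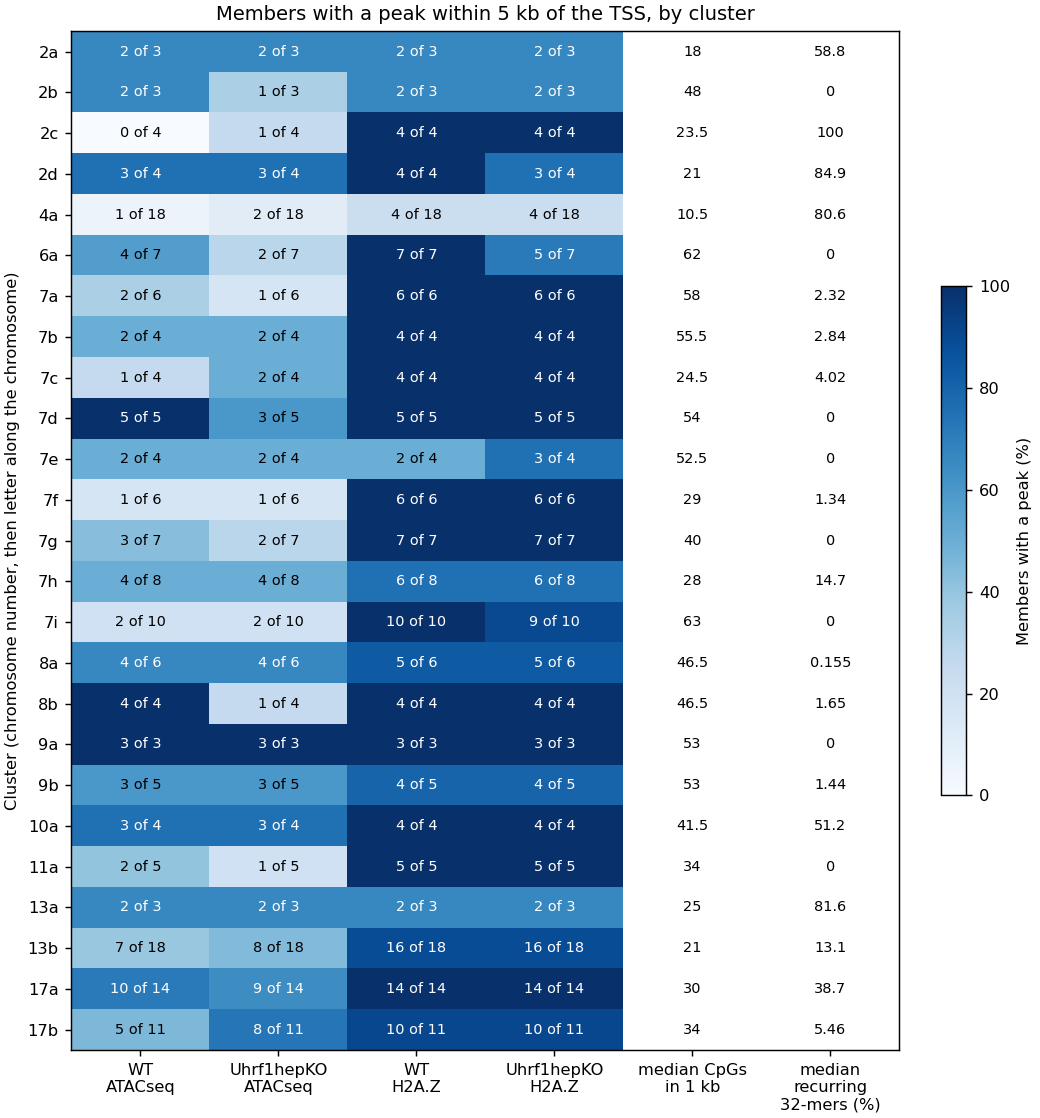
Members of each of the 25 clusters that have a peak at the TSS (5 kb on either side) in each list (colour, percent; text, number of members), with the median CpGs within 500 bp of the TSS and the median percent of 32-mers there that occur more than once in the genome. Cluster 4a stands out, with H2A.Z at 4 of 18 members, and 2c has H2A.Z at 4 of 4 although all its 32-mers recur.

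Cluster 4a (chr4:145510759-147848366) was the exception. It held 18 members over 2338 kb, of which 16 matched the KRAB signature, and 4 had H2A.Z in WT and in Uhrf1hepKO (22.2%), 1 had ATACseq in WT and 2 did in Uhrf1hepKO. The members with H2A.Z were the same in both genotypes. They were Zfp993 (fold 4.41 in WT, 4.42 in Uhrf1hepKO), Zfp991 (3.67 and 3.92), Zfp984 (6.03 and 5.50) and Zfp933 (8.77 and 7.90). These were also the 4 members of the cluster with over 12 CpGs within 500 bp of the TSS, at 17 for Zfp993, Zfp991 and Zfp984 and 27 for Zfp933, and none of the 14 with 12 or fewer had H2A.Z (0 of 14, which allows a share of up to 21.4%). Outside this cluster 7 of 17 members with 12 or fewer CpGs had H2A.Z in WT (41.2%, 21.6 to 64), 4 of them with the best peak over 2 kb downstream of the TSS. The members of 4a with ATACseq were Zfp991 (fold 3.25 at 3276 bp from the TSS in WT and 3.08 at 970 bp in Uhrf1hepKO) and Zfp987, which had a peak in Uhrf1hepKO only (fold 3.45 at -3857 bp) and no H2A.Z.

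The 4a starts also recur in the genome. A median of 80.6% of the 32-mers within 500 bp of the TSS occurred more than once in the genome, against 0.309% over all members, and the treatment of reads that map to several places is not given in the sources used here. Only Zfp933, at the cluster's edge, had a start made nearly wholly of single-copy sequence (0.206%), and it had the highest fold. Members with and without peaks overlapped in recurrence: Zfp993 and Zfp991 had 100% and 93.4% recurring 32-mers and H2A.Z, while Zfp985 had 47.1% and no peak. In cluster 2c (chr2:175372436-175931100) all 32-mers at its 4 starts recurred and every member had H2A.Z. The fold was 8.53 in WT and 7.20 in Uhrf1hepKO at Zfp968, 6.82 and 6.97 at Zfp965, 7.56 and 5.81 at Zfp969, and 8.53 and 8.37 at Zfp966, with the best summits between -267 and -194 bp from the TSS. Cluster 2d, with a median of 84.9% recurring, had H2A.Z at 4 of 4 members in WT and 3 of 4 in Uhrf1hepKO. Over all members, H2A.Z was present in WT at 28 of 43 (65.1%, 50.2 to 77.6) with over 50% recurring 32-mers in the window and at 199 of 238 (83.6%, 78.4 to 87.8) with at most 50%. The part of read mapping in these shares was not tested.

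Each cluster had a leading member by WT H2A.Z fold, with ties settled by position. The leaders ranged from Zfp335 of 2b (7.31) to Zfp874b of 13b (15.60), and all 25 had H2A.Z in Uhrf1hepKO as well. Besides those already described, leaders with folds above 12 in WT were Zfp780b of 7f (13.65), Zfp954 of 7c (12.92), Zfp873 of 10a (12.43), Zfp354c of 11a (12.43), Zfp952 of 17b (12.43), Zfp329 of 7d (12.43) and Zfp566 of 7g (12.43). The best WT peak of Zfp566 lay at -4377 bp, next to the start of another zinc finger gene, Zfp260, while the peak at its own start had a fold of 11.94. That of Zfp667 lay at -2734 bp. Ties were found in 2c (Zfp968 and Zfp966), 6a (Zfp786 and Zfp956, and Zfp398 through the peak at the start of Zfp786), 8b (Zfp882 and Zfp617, which share the peak) and 17b (Zfp952 and Zfp955a). The remaining leaders, with folds from 8 to 12, were Zfp983 (11.70), Zfp442 (11.46), Zfp667 (11.21), Zfp524 (10.72), Zfp868 (10.48), Zfp764 (9.99), Zfp882 (9.99), Zfp786 (9.26), Zfp526 (9.02), Zfp935 (8.96), Zfp846 (8.77) and Zfp653 (8.04). No cluster lacked peaks at every member.

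Members with known roles were found on both sides. Zfp809, which recognises the primer binding site of murine retroviruses and silences them, had ATACseq (4.09 in WT, 4.18 in Uhrf1hepKO) and H2A.Z (7.31 and 7.67). Zfp932, a repressor of endogenous retroviruses, had both as well, with ATACseq folds of 4.06 and 4.12 and H2A.Z folds of 10.48 and 11.16. Zfp445, which maintains imprints, had H2A.Z (9.26 and 10.46) and no ATACseq peak. Zfp568, which represses the placental Igf2 transcript, had H2A.Z (9.99 in each) and ATACseq in WT only (3.94). Zfp708, which binds a retroelement, had no peak in any list and 15 CpGs at its start.

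The members known as developmental factors ranged from no peak to all 4. Zfp423, a regulator of neural and adipocyte precursors, had no peak with 91 CpGs at its start, and nor did Zfp462, which maintains pluripotency, with 54. Zfp521, a progenitor factor related to Zfp423, had 1 low H2A.Z peak in WT only (3.66). Zfp503, of the family of Zfp703, likewise had H2A.Z in WT only (4.63). Zfp703 had all 4 peaks, with ATACseq folds of 4.27 and 3.95 and H2A.Z folds of 7.07 and 7.67, and Zfp704 had H2A.Z only. Zfp335, needed for neural progenitors and T cells, had all 4 too, with ATACseq folds of 4.87 and 4.10 and H2A.Z folds of 7.31 and 7.67.

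Between the livers, H2A.Z at the members differed at few starts. It was listed in both genotypes at 217 members, in WT only at 10 (3.56%, beside 3.99% of all coding genes) and in Uhrf1hepKO only at 4 (1.42%, beside 2.17%). Those found in WT only were Zfp593 (fold 6.09), Zfp518b and Zfp553 (5.36 each), Zfp972, Zfp467 and Zfp503 (4.63 each), Zfp385c (4.39), Zfp641 (4.14), Zfp777 (3.90) and Zfp521 (3.66). Those in Uhrf1hepKO only were Zfp710 (6.04), Zfp523 (5.81), Zfp574 (5.58) and Zfp804b (4.18), and none of the 14 folds reached the median of the members listed in both. ATACseq was listed in both at 94 members, in WT only at 30 (10.7%, beside 7.44%) and in Uhrf1hepKO only at 18 (6.41%, beside 5.07%). Of the 142 members with ATACseq in either genotype 33.8% had it in 1 only, beside 34.3% over all coding genes, so the members were near the background. The highest folds among these were 5.45 at Zfp354b and 4.67 at Zfp511 in WT, and 5.13 at Zfp747 and 4.93 at Zfp652 in Uhrf1hepKO. WT had more of the ATACseq starts although its library was estimated to be the shallower, and the part of depth was not tested.

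The starts listed in 1 genotype only had lower peaks by median. The best ATACseq peak of the 30 members with WT only stood at a median of the 39.2 percentile of its list by p-value, against 69.0 for the 94 with both, and the 18 with Uhrf1hepKO only stood at 41.4 against 62.9. For H2A.Z the medians were 37.2 (WT only) against 91.7 and 58.2 (Uhrf1hepKO only) against 91.6. Over the 217 members with H2A.Z in both, Spearman's rho between the folds of the best peak was 0.83, and over the 94 with ATACseq it was 0.58, as descriptions across genes of the same pair of livers. No member had peaks of both assays in 1 genotype and of neither in the other. A mixed pattern was seen at Zfp710, with ATACseq in WT only and H2A.Z in Uhrf1hepKO only, and at Zfp518b, with the reverse. With 1 liver per genotype, a difference between genotypes and one between animals or libraries cannot be told apart.

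**Figure D5:**
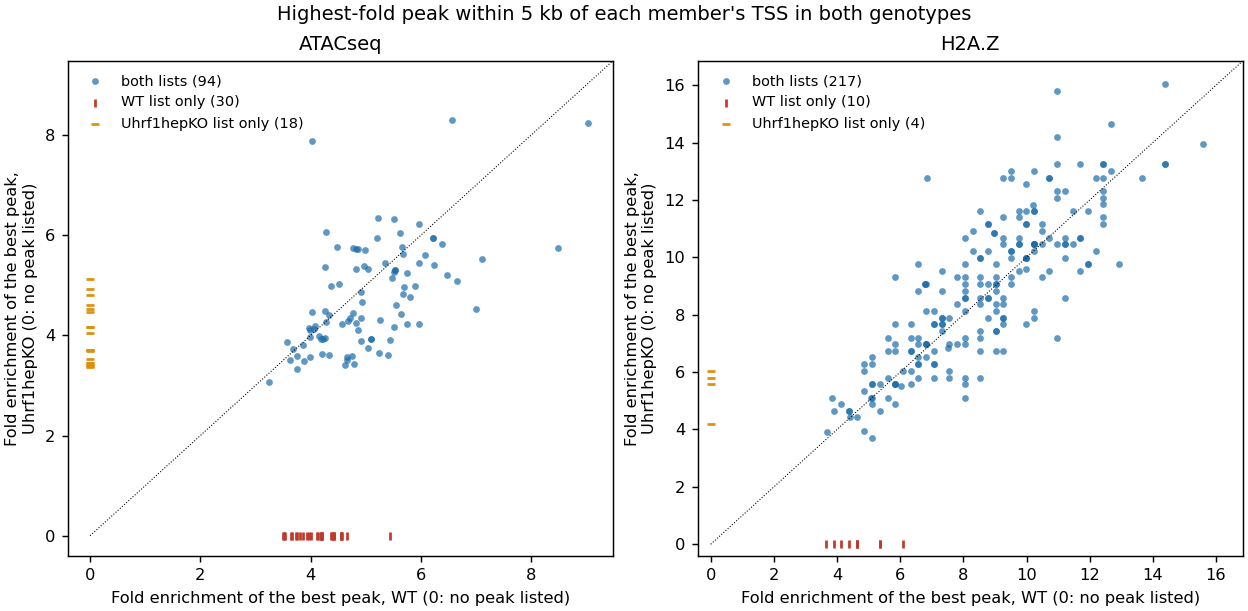
Fold enrichment of the highest peak within 5 kb of each member's TSS in WT (horizontal) and Uhrf1hepKO (vertical), for ATACseq (left) and H2A.Z (right); each point is a member listed in both genotypes, and ticks at 0 mark members listed in 1 only. The ticks reach 6.09 for H2A.Z, below the median of the members listed in both, and 5.45 for ATACseq, which is above it.

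The last exon, which encodes most fingers, was nearly bare in all lists. A finger from 3 last exons is shown to make clear what these exons hold, with the codons of the paired cysteines and histidines in capitals: Zfp568 (chr7:30022724-30022786), Zfp932 (chr5:110008753-110008815) and Zfp707 (chr15:75974691-75974753), all on the plus strand of GRCm38.
Zfp568: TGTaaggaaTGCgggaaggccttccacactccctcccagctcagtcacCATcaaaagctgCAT
Zfp932: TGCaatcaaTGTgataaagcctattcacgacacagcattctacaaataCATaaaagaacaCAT
Zfp707: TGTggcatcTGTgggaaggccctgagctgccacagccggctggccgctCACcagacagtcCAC

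H2A.Z overlapped the last exon of 1 member in each genotype (0.356%, 0.0628 to 1.99), beside 3.03% of coding genes in WT and 2.82% in Uhrf1hepKO. That member was Zfp707, with a peak at the 3′ end of the exon (WT chr15:75975650-75975791, fold 7.31; Uhrf1hepKO chr15:75975634-75975775, fold 7.44), 6578 bp and 6571 bp from its TSS. Zfp707 encodes 7 fingers and the KRAB signature and lies outside the clusters. Among the clustered members 0 of 166 had H2A.Z over the last exon, which allows a share of up to 1.81%. The members' last exons covered 0.818 Mb, over which H2A.Z made 1.22 peaks per Mb in each genotype, against 22.8 (WT) and 21.1 (Uhrf1hepKO) per Mb over the last exons of other coding genes. Those of the genes Zfp1 to Zfp299 covered 0.308 Mb and had 0 H2A.Z peaks in each genotype. This was 0 of 102 genes, which allows a share of up to 2.94%, so the low count was not particular to the members. The members' difference from all coding genes was also seen away from the start. Of 260 members with last-exon bases more than 5 kb from the TSS 0.385% had H2A.Z there in each genotype, beside 2.20% and 2.08% of all coding genes. With the last exons of all coding transcripts joined, the count rose to 4 members in WT and 2 in Uhrf1hepKO. The share of all coding genes with joined last exons is not given here, so this count has no background beside it. The last exons of members held a median of 11.5 CpGs per kb, against 13.3 for all coding genes, and 3.62% of their 32-mers recurred, against 0.137%; the part of either was not tested.

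By share of genes, ATACseq over the last exon was near the background, at 3 members in each genotype (1.07%, 0.364 to 3.09), beside 1.23% of coding genes in WT and 1.17% in Uhrf1hepKO. Per Mb of last exon it was lower, at 3.67 peaks in each genotype, against 7.25 (WT) and 6.96 (Uhrf1hepKO) for other coding genes. The members' rates rest on 3 peaks in each genotype. Zfp771 had ATACseq there in both, with folds of 3.85 and 4.54, 9917 bp and 10014 bp downstream of its TSS. Zfp830 had it in both as well (4.66 and 3.56), but this gene has a single exon, and the peak lay at its TSS, 5 bp from that of Cct6b in WT. The remaining ones were Zfp362 in WT (3.46) and Zfp697 in Uhrf1hepKO (3.50). At a q-value of at most 0.01 the count was 1 in each genotype.

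Among features that the names did not use, members with and without the KRAB signature had shares whose intervals overlapped. H2A.Z was present in WT at 57 of 75 members with it (76.0%, 65.2 to 84.2) and at 170 of 206 without it (82.5%, 76.8 to 87.1), and ATACseq at 42.7% and 44.7%. The order turned round without cluster 4a, which holds 16 of the 75: H2A.Z was then at 54 of 59 with the signature (91.5%, 81.6 to 96.3) and 169 of 204 without it (82.8%, 77.1 to 87.4), with the intervals still overlapping. This split was chosen after the values were seen. Other KRAB sequences would not match the signature, so members without it may still encode a KRAB domain. A coding gene of the opposite strand started within 1 kb upstream of 15 members, 4 of which pair with each other (Zfp942 with Zfp943 and Zfp944 with Zfp758). Of the 15, 11 had ATACseq in each genotype (73.3%, 48.0 to 89.1), against 42.5% (36.7 to 48.5) in WT and 38.0% (32.3 to 43.9) in Uhrf1hepKO for the 266 without such a neighbour. Within 1 kb of the TSS the count was 7 of 15 in WT (46.7%, 24.8 to 69.9), against 39.8% (34.2 to 45.8). In Uhrf1hepKO it was 8 of 15 (53.3%, 30.1 to 75.2), against 35.3% (29.8 to 41.3). The intervals overlapped in both genotypes at 1 kb, so the contrast rests in part on peaks farther away. Opposite starts were sought only around members, so no share of all coding genes stands beside these. H2A.Z within 5 kb was at 80.0% of the 15 against 80.8% in WT. Of the members, 209 had a RefSeq promoter of 300 bases within 1 kb of the TSS used. On either strand of these, the ETS-type motif CCGGAAGT was found in 7.18%, beside 6.18% of all 13553 promoters searched, the NRF1-type GCATGCGC in 4.78%, beside 4.16%, CTCGCGAG in 0.957%, beside 1.48%, ACTACAA in 3.83%, beside 3.93%, and AAGATGGC, the core of the YY1 motif, in 4.78%, beside 3.48%. No motif contains another, and a match is a run of letters, not a bound site. TATAAA was found in 4.78%, beside 11.2%. H2A.Z was listed in WT at 84.7% of the 209 members searched. It was at all 15 members with CCGGAAGT, 10 of 10 with GCATGCGC, 2 of 2 with CTCGCGAG, 8 of 8 with ACTACAA, 9 of 10 with AAGATGGC and 8 of 10 with TATAAA, with the same counts in Uhrf1hepKO. Over all coding genes with these motifs the WT shares were 92.0%, 86.7%, 88.5%, 72.2%, 85.4% and 38.6% in the same order, and with so few members no difference between motifs can be read.

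The partners of KRAB zinc finger proteins and of UHRF1 were examined as a fixed list of 16 genes. H2A.Z was found near the TSS of 11 in each genotype (68.8%, 44.4 to 85.8, beside 54.4% and 52.6% of all coding genes). ATACseq was near 6 in WT (37.5%, beside 31.4%) and 5 in Uhrf1hepKO (31.2%, beside 29.0%), and all 4 intervals take in the share of all coding genes. Genes with H2A.Z in both included Setdb1, the H3K9 methyltransferase, the HP1 genes Cbx1, Cbx3 and Cbx5, Mphosph8, Pphln1 and Fam208a of the HUSH complex, Dnmt3b, Chd3, Zfp57 and Uhrf1. Trim28, the corepressor that KRAB domains bind, had no peak in any list, as was the case for Dnmt1, Dnmt3a and Atf7ip, and Morc2a had ATACseq alone in both genotypes.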

How the data were processed

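Peaks of ATACseq and H2A.Z ChIPseq from 1 WT and 1 Uhrf1hepKO liver were compared. The authors mapped reads with BWA-MEM to GRCm38.p4, processed them with PICARD (duplicates removed for ChIPseq) and ran MACS2 on every library separately, in broad mode for ATACseq. The MACS2 version, control library, Tn5 shift and handling of reads that map to several places are not given in the sources used here. The deposited columns hold a display score (not used), a fold enrichment over background (a ratio), −log10 p-values, −log10 q-values and, for H2A.Z, the summit. ATACseq peaks were placed by their middle. Read depth is known only as the rough relative estimate in the text.

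The gene models were those of GENCODE vM21, and the bases were read from RefSeq GRCm38.p6. The TSS was the outermost base of the gene, and the last exon that of the best transcript by APPRIS level, then by coding length. A peak counted if it overlapped the window or exon by 1 bp. Fingers (C, 2 residues, C, 12 residues, H, 3 to 5 residues, H) and the KRAB signature (VM or VT, any residue, EN, then Y or F) were sought in the translated GENCODE coding sequence, not in the RefSeq protein as planned. Named members were each cluster's highest WT H2A.Z fold, the 3 highest folds per list at the TSS and over the last exon, any member with both assays in 1 genotype only (there was none), any cluster without peaks (none) and 12 genes of known role, and other genes were named after their values were seen. Members, lists and rules were chosen with earlier results of these data known. Overlaps and 32-mer counts were checked on simulated data (Python 3.11.15, pandas 2.3.3, numba 0.67.0). With 1 library per condition no test was made. Alternatives were a 1 kb window, the TSS of the representative transcript, other last exons, a q-value of 0.01, an overlap of 50%, recurring members left out, lists of equal size and clusters within 250 kb.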

Additional observations from a re-analysis of the deposited data

How the results depend on the processing

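Of 57 values recomputed under the alternatives, 50 stayed within the 95% interval of the value reported or, for counts, within 1.5 times of it, and 7 moved. With a q-value of at most 0.01, members with ATACseq at the TSS came to 37.4% in WT and 30.6% in Uhrf1hepKO, and those with one over the last exon to 0.356% in each. Asking for 50% of the peak to lie in the last exon gave 0.356% for WT ATACseq. With the last exons of all coding transcripts joined, H2A.Z was at 1.42% of members in WT and 0.712% in Uhrf1hepKO, against 0.356% in each. The shares of all coding genes at the stricter q-value and with joined last exons are not given here. Of 4 values recomputed under alternatives chosen after seeing the data, 2 moved: H2A.Z in WT at members with the KRAB signature was 91.5% without cluster 4a, against 76.0%, and WT ATACseq at members with an opposite start was 46.7% within 1 kb, against 73.3%. A stricter threshold or overlap can only remove peaks. Chaining clusters within 250 kb gave 26 clusters with 151 members, of which 84.8% had H2A.Z in WT, against 84.3% of 166. Members with a TSS peak in 1 genotype only numbered 41 to 49 for ATACseq (48 as reported) and 13 to 14 for H2A.Z (14 as reported). No paired analysis was possible because each genotype has 1 library per assay. The design has no replicates, so no value here separates the genotypes from the livers, and the absence of a peak from these lists says only that none was called at this depth.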

Other observations

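Of the 48 members without a peak near the TSS in any list, 24 lay in clusters, 13 of them in cluster 4a, and 24 outside. These were 14.5% (9.91 to 20.6) of the 166 clustered members and 20.9% (14.4 to 29.2) of the 115 outside. The 24 outside included starts rich in CpGs, such as Zfp592 with 137 CpGs within 500 bp of the TSS, Zfp664 with 110, Zfp541 with 94 and Zfp804a with 93, and starts with hardly any, such as Zfp616 with 2, Zfp735 with 5 and Zfp352 with 6. Recurring sequence was low at the CpG-rich starts, at 0% of 32-mers for Zfp592, Zfp664, Zfp541 and Zfp804a. These genes were picked after their values were seen.

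Some members with few CpGs at the annotated start had a strong H2A.Z peak further into the gene. The best WT peak lay 2849 bp downstream of the TSS at Zfp607a (fold 12.19, 5 CpGs), 3487 bp at Zfp791 (10.24, 8 CpGs), 4276 bp at Zfp558 (9.26, 4 CpGs) and 2821 bp at Zfp473 (6.82, 7 CpGs), and in Uhrf1hepKO the best folds there were 10.23, 10.46, 10.69 and 6.97. Whether these peaks mark other start sites was not tested.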
